A study of Mus musculus with 6 samples.

Results

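The TEAD transcription factors and their coactivators were followed in whole pancreatic islets whose beta cells had been made to lack Tead1. The set comprised 8 genes: the 4 TEAD factors Tead1, Tead2, Tead3 and Tead4, the coactivators Yap1 and Wwtr1, and the cofactors Vgll3 and Vgll4. Every probe set with exactly 1 of these gene symbols in the platform annotation was taken, which gave 15 of the 45037 probe sets tested on the array. Tead1, Tead4 and Yap1 were read by 2 probe sets each, Wwtr1 and Vgll3 by 3 each, and Tead2, Tead3 and Vgll4 by 1 each. The groups were islets lacking Tead1 in beta cells (Tead1KO, 3 arrays) and islets of Flox mice, the controls (Flox, 3 arrays). All mice were C57Bl6 males of 12 weeks. The Cre driver of the knockout, and whether the Flox mice carried a Cre transgene, are not stated in the labels. The labels do not tie an array to a single animal, and the spread behind each p-value may thus be technical.

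TEAD factors bind DNA through the TEA domain, at a short element known as the MCAT motif, but activate transcription poorly alone. Yap1 and Wwtr1 (also called TAZ) bind them in the nucleus and supply the activating function, while the Hippo kinases phosphorylate both coactivators and keep them in the cytoplasm. Vgll proteins use the same surface of the TEAD factors, and Vgll4 competes with Yap1 there and counts as a repressor. In the pancreas Yap1 is known as a protein of progenitors, ducts and stroma that is switched off as endocrine cells form. Since the 4 TEAD factors share the TEA domain and the coactivators, the comparison asks whether another TEAD factor or a coactivator was higher where beta cells lacked Tead1.

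The MCAT motif was searched in the promoters of the members, because a TEAD factor could bind the genes of its own family and partners there. The window ran from 250 bases before to 50 bases after an annotated start, and the letters searched were CATTCC and their reverse complement GGAATG, that is, both strands of 1 motif. Sequences are from RefSeq on GRCm38.p6 and covered 9 promoters of 6 members, Tead2, Tead3, Yap1, Wwtr1, Vgll3 and Vgll4. Promoters of Tead1 and Tead4 were not analysed here. Of the 6 members, 5 had at least 1 match, and Tead2 had none. Of all 32851 promoter windows of this length, 14.7% held the motif, and 16.6% of the 27025 genes held it in at least 1 window. Tead3 and Wwtr1 have several annotated starts, which gives them more windows in which a match can fall. Yap1, Tead3 and Wwtr1 are shown, as the coactivator whose signal differed most, the TEAD factor with the most matches, and the second coactivator. Capitals mark the motif. The Yap1 window is chr9:8004547-8004846, the Tead3 window chr17:28350551-28350850 and the Wwtr1 window chr3:57575861-57576160, all on the minus strand.
Yap1: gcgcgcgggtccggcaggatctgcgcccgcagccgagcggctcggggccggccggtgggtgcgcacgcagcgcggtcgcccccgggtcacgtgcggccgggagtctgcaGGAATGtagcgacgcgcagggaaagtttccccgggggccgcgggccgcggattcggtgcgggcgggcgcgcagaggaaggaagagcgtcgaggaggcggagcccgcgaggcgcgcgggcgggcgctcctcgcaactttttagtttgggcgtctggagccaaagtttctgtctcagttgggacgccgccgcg
Tead3: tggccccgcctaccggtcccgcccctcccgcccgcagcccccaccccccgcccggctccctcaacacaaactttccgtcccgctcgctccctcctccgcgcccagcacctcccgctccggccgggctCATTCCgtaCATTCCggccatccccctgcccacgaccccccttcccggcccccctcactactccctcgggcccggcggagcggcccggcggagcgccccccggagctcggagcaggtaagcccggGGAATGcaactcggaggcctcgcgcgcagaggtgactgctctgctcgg
Wwtr1: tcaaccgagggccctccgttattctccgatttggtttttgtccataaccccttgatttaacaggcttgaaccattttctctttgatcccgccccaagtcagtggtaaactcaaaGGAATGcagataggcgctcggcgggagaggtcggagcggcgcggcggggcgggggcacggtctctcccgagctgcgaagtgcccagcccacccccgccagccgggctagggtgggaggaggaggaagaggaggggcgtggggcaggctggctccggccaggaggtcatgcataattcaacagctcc
The Yap1 match began at position -141 from the start, counted with the start base as 0. Those of this Tead3 window began at -123, -114 and 2, and a further Tead3 window had 1 at -182. Both Wwtr1 windows overlap and hold the same match, at -136 and -170 from their own starts. Single matches lay at -63 in Vgll3 and at -82 in Vgll4. A match to these letters is a description of the sequence and does not show binding.

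**Figure D1:**
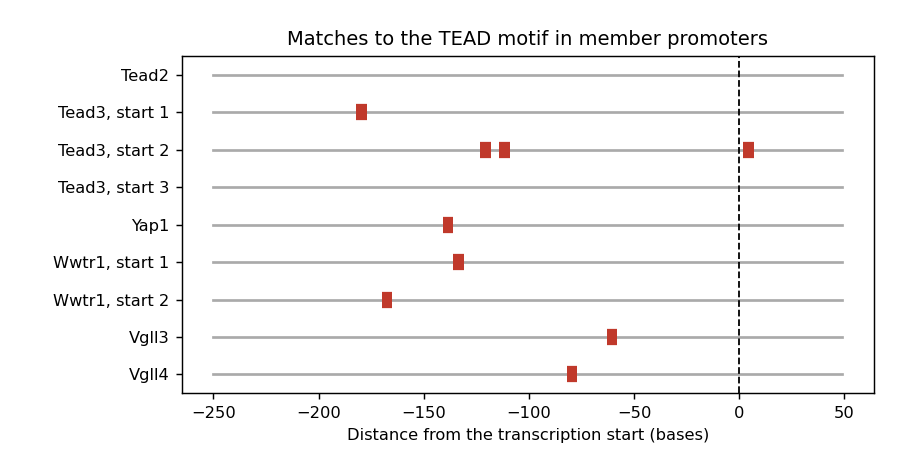
Each grey line is 1 promoter window of a member, drawn by distance from the transcription start in bases, and red bars are matches to the MCAT motif on either strand. Matches lie in 7 of the 9 windows, and those of Tead2 and of 1 Tead3 start have none.

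Signals are log2 values, given per group in the order of replicates 1, 2 and 3. Background is taken as the range of 27 control probe sets for bacterial RNA left unspiked, from 2.87 to 4.70. The arrays were of unequal quality. Spiked hybridization controls read 12.18, 11.02 and 13.31 on the Tead1KO arrays and 12.03, 11.09 and 10.80 on the Flox arrays. Tead1KO replicate 3 also had the narrowest interquartile range of all probe sets (2.65, against 2.99 to 3.32 on the other arrays) and the lowest mean correlation with the other arrays (0.969, against 0.984 to 0.986). The differences of the members are therefore also given without it. The 6 beta cell markers read between 9.97 and 15.71 on all arrays, far above background. Of these 6, 5 lay below 0 in Tead1KO, with a median of -0.31, 0 passed over all probe sets by limma (beside 0.308% of all genes taken at their brightest probe set) and 2 had an unadjusted p under 0.05 (beside 7.23% of all genes). Those 2, named after their values were seen, were Nkx6-1, a transcription factor of beta cells, and Slc2a2, the glucose transporter. Nkx6-1 read 10.08, 10.36 and 9.97 on the Tead1KO arrays and 11.03, 11.28 and 10.96 on the Flox arrays. Slc2a2 read 12.60, 13.08 and 12.31 on the Tead1KO arrays and 13.37, 13.58 and 13.48 on the Flox arrays. In both the Tead1KO arrays lay below all Flox arrays (limma adjusted p = 0.116 and 0.331), and the part of this in the members' values was not tested. Acinar markers were also bright. Their mean over 5 genes was 12.09, 14.15 and 13.35 on the Tead1KO arrays and 11.92, 13.97 and 14.30 on the Flox arrays. Replicate 1 was thus the lowest array of each group, and the part of acinar content in the members' values was not tested.

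Tead1 itself, the targeted gene, did not differ by more than the spread between arrays. Its brighter probe set, 1429556_at, read 6.72, 7.49 and 5.95 on the Tead1KO arrays and 7.22, 6.99 and 7.40 on the Flox arrays. The array labelled Tead1KO replicate 2 lay above every Flox array, and the other Tead1KO arrays lay below every Flox array. The means were 6.72 ± 0.77 in Tead1KO and 7.20 ± 0.21 in Flox (SD, n = 3 each). The log2 difference was -0.49 with a 95% interval from -1.30 to 0.33, or 71.4% of the Flox level (limma adjusted p = 0.871). An exact permutation test (two-sided) of this probe set gave p = 0.4, where 0.1 is the smallest value possible. The spread of the Tead1KO arrays was large for a signal of this level: among 4256 probe sets within 0.5 of its mean, the SD of Tead1 lay at percentile 92.8 in Tead1KO and at percentile 68.9 in Flox.

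The size of this difference rested on single arrays. It was -0.87 without Tead1KO replicate 2 (limma adjusted p = 0.146) and -0.10 without Tead1KO replicate 3. With the hybridization control signal as a covariate it was -0.03. That signal was highest on Tead1KO replicate 3, so the covariate is not independent of leaving this array out. It can also take up part of a difference between the groups, here and for the other members. The dimmer Tead1 probe set, 1423434_at, read 5.58, 5.41 and 4.98 on the Tead1KO arrays and 6.14, 5.33 and 5.11 on the Flox arrays. Here the Tead1KO arrays lay within or just below the Flox range, and the difference of -0.21 (95% interval -0.87 to 0.45) was -0.04 without Tead1KO replicate 3 and turned to 0.10 without Flox replicate 1. The part of Tead1 that was deleted, and the position of the probe sets relative to it, are not known from the sources used here, so neither probe set checks the labels. Other islet cells keep Tead1 by design, and in a bulk sample fewer cells of a type and less RNA per cell cannot be told apart.

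**Figure D2:**
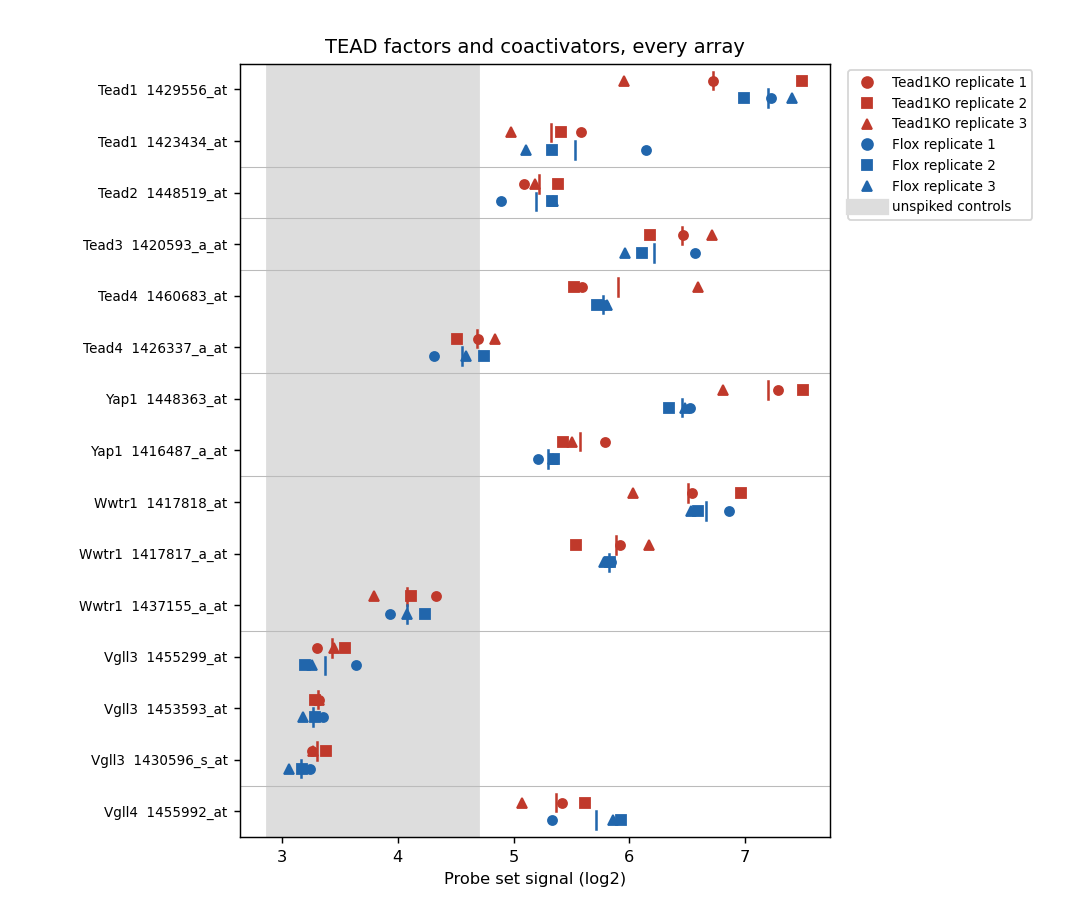
Points are log2 signals of single arrays (x axis) for the 15 probe sets of the 8 members (y axis), Tead1KO in red above Flox in blue, with the symbol giving the replicate and vertical ticks the group means; the grey band marks unspiked controls, from 2.87 to 4.70. The 3 Tead1KO arrays of Yap1 lie right of the 3 Flox arrays in both of its probe sets, the Tead1 arrays overlap, and Vgll3 lies in the band throughout.

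None of the 15 member probe sets passed the test over all probe sets. By limma, 0 of 15 had an adjusted p under 0.05, against 0.180% of all probe sets tested (81 of 45037), and 1 of 15 had an unadjusted p under 0.05, against 5.18%. The groups did not overlap in 3 of the 15, against 10.5% of all probe sets, and in all 3 the Tead1KO arrays were the higher ones, against 5.36% in that direction. These were both probe sets of Yap1 and 1 of Vgll3 that lay within background. In total 10 differences were above 0 and 5 below, with a median of 0.06, beside a median of 0.0292 over all probe sets. Signal exceeded the unspiked controls on all 6 arrays for 10 of the 15, while 5 had both group means within background.

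At their brighter probe sets the remaining TEAD factors lay above background, and their arrays overlapped between the groups. Tead2, the TEAD factor known from the early embryo and neural tissue, read 5.09, 5.38 and 5.18 on the Tead1KO arrays and 4.89, 5.33 and 5.34 on the Flox arrays. All Tead1KO values lay in or just above the Flox range. Its log2 difference was 0.03 with a 95% interval from -0.39 to 0.44, so the interval ends at 1.36-fold (limma adjusted p = 0.978), and it was 0.05 without Tead1KO replicate 3.

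Tead3, best known from placenta, read 6.46, 6.18 and 6.71 on the Tead1KO arrays and 6.57, 6.11 and 5.96 on the Flox arrays. Tead1KO replicate 3 was the highest array and the others lay inside the Flox range. The difference was 0.24 (95% interval -0.27 to 0.74, ending at 1.68-fold, limma adjusted p = 0.871) but 0.11 without Tead1KO replicate 3 and -0.02 with the control signal as a covariate.

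Tead4, needed for the trophectoderm of the embryo, read 5.59, 5.52 and 6.59 at its brighter probe set on the Tead1KO arrays and 5.78, 5.72 and 5.81 on the Flox arrays. Here 2 Tead1KO arrays lay below every Flox array and Tead1KO replicate 3 lay above all of them. The difference of 0.13 (95% interval -0.51 to 0.78, ending at 1.71-fold, limma adjusted p = 0.925) was -0.21 without Tead1KO replicate 3 and -0.17 with the control signal as a covariate. The dimmer Tead4 probe set lay at the edge of background, at 4.68 ± 0.17 in Tead1KO and 4.55 ± 0.22 in Flox (SD, n = 3 each), and its difference was 0.06 without Tead1KO replicate 3. No rise of Tead2, Tead3 or Tead4 was detected with 3 arrays a group. The interval ends given are no limit of detection, and larger rises can also go undetected. Wwc2, a Hippo scaffold described below, was 2.26-fold higher and did not pass (limma adjusted p = 0.0938).

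**Figure D3:**
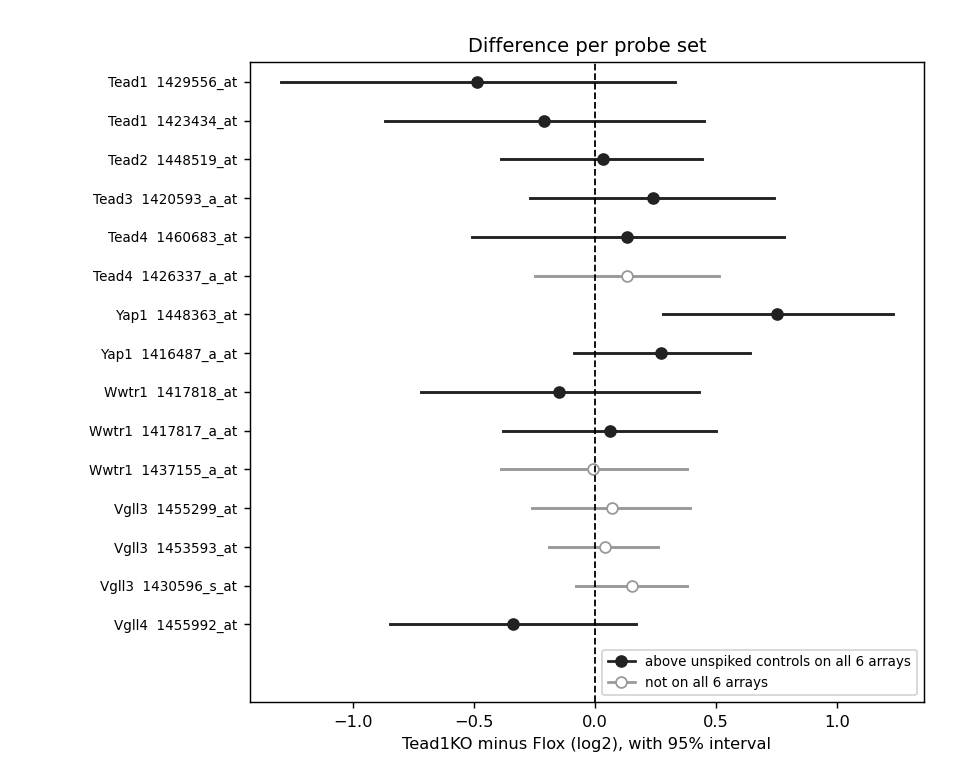
The x axis is the difference Tead1KO minus Flox (log2) of each member probe set, with its moderated 95% interval as a line; filled points were above the unspiked controls on all 6 arrays and open grey points were not. The interval of the brighter Yap1 probe set, 0.28 to 1.23, lies right of 0, and all others include 0.

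Yap1 had the largest difference among the members, higher in Tead1KO on every array. Its brighter probe set, 1448363_at, read 7.28, 7.50 and 6.81 on the Tead1KO arrays and 6.52, 6.34 and 6.48 on the Flox arrays. The means were 7.20 ± 0.35 in Tead1KO and 6.45 ± 0.09 in Flox (SD, n = 3 each), a log2 difference of 0.75 (SE 0.21, 95% interval 0.28 to 1.23) or 1.69-fold. This did not pass over all probe sets (limma adjusted p = 0.509), and 575 was its rank by p among the 45037 probe sets. The exact permutation test gave p = 0.1, the smallest value that 3 arrays against 3 can give. Leaving out 1 array at a time gave differences between 0.60 and 0.95. It was 0.95 without Tead1KO replicate 3, the array that stood apart (limma adjusted p = 0.069), and 0.94 once the hybridization control signal entered as a covariate (limma adjusted p = 0.0673), the lowest adjusted p of any member under the alternatives run. At 1 probe set per gene the adjusted p over genes was 0.293.

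The dimmer Yap1 probe set, 1416487_a_at, read 5.79, 5.43 and 5.50 on the Tead1KO arrays and 5.21, 5.35 and 5.34 on the Flox arrays. Its Tead1KO arrays also lay above all Flox arrays, by a smaller margin, with a difference of 0.27 (95% interval -0.09 to 0.64, limma adjusted p = 0.871) that was 0.31 without Tead1KO replicate 3. The Yap1 promoter shown above holds 1 MCAT motif, which 14.7% of all promoter windows hold. A part of this motif in the Yap1 signal was not tested.

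Markers of cells that are known to make Yap1 protein were set beside it. Of 10 markers of stellate cells, fibroblasts and pericytes, 0 passed over all probe sets by limma and 4 had an unadjusted p under 0.05, in both directions, beside 0.308% and 7.23% of all genes. The mean signal of the 10 was 7.56, 7.68 and 7.20 on the Tead1KO arrays and 7.41, 7.46 and 7.30 on the Flox arrays, so the groups overlapped. Those 4, named after their values were seen, were Dcn, Col1a2, Acta2 and Rgs5. Dcn, a matrix proteoglycan, read 7.56, 8.44 and 7.48 on the Tead1KO arrays and 6.56, 6.79 and 6.79 on the Flox arrays. Col1a2, a chain of collagen I, read 10.01, 9.89 and 9.70 in Tead1KO, against 9.50, 9.22 and 9.03 in Flox. The contractile marker Acta2 was the lower in Tead1KO, at 7.66, 7.72 and 7.00, against 8.14, 8.31 and 8.89 in Flox. Rgs5, a pericyte marker, differed by -0.62. Of 5 duct markers, 2 lay above 0 and 3 below, with a median of -0.17, and Cftr lay within background in both groups. Of 7 endothelial markers 5 lay above 0 with a median of 0.05, and of 4 Schwann cell markers 3 lay above 0 with a median of 0.17. Of 7 macrophage markers 4 lay above 0, with a median of 0.08. Beside 7.23% of all genes, 1 of the 7 had an unadjusted p under 0.05. This was C1qa, a complement subunit, also named after its values were seen, which read 11.52, 11.99 and 10.51 on the Tead1KO arrays and 9.75, 10.55 and 10.50 on the Flox arrays. Its difference of 1.08 was larger than that of Yap1, did not pass (limma adjusted p = 0.819), and its groups overlapped through Tead1KO replicate 3. C1qb, a further complement subunit among these markers, differed by 0.08. The part of these cells in the Yap1 signal was not tested.

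**Figure D4:**
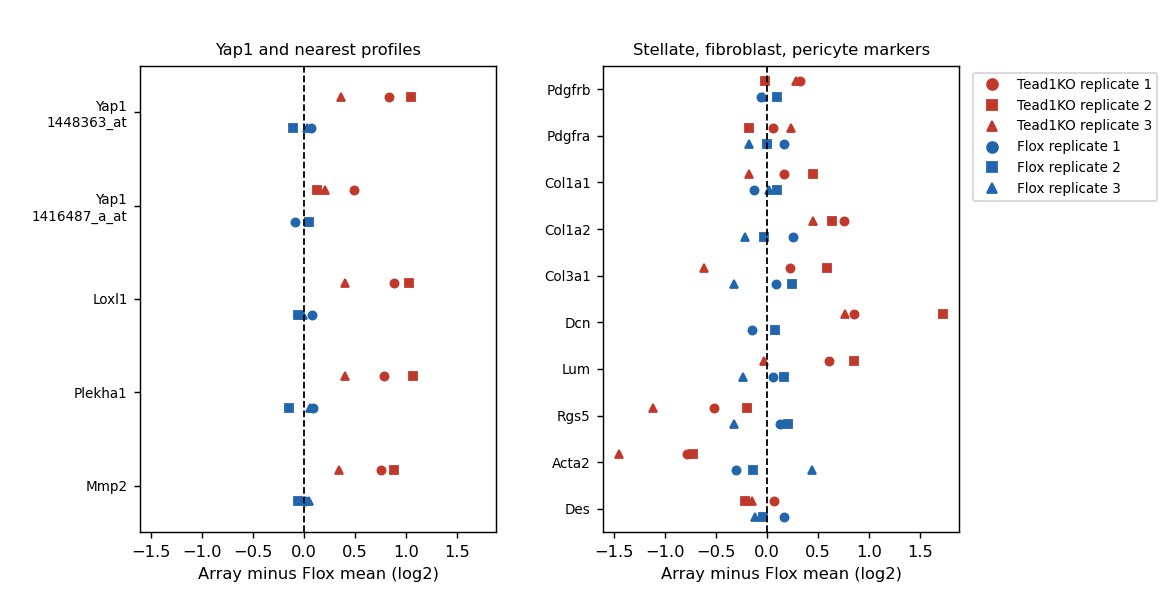
The x axis is the signal of each array minus the mean of the Flox arrays (log2). At left are both Yap1 probe sets and the 3 genes with the profile nearest to the brighter of them. At right are 10 markers of stellate cells, fibroblasts and pericytes. Red is Tead1KO, above Flox in blue, and the symbol gives the replicate. Dcn and Col1a2 are higher on all 3 Tead1KO arrays, Acta2 is lower on all 3, and the other markers overlap.

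Wwtr1, the second coactivator, showed no common direction. Its brightest probe set, 1417818_at, read 6.54, 6.96 and 6.03 on the Tead1KO arrays and 6.86, 6.59 and 6.53 on the Flox arrays. The Tead1KO arrays spread to both sides of the Flox range, with a difference of -0.15 (95% interval -0.72 to 0.43, limma adjusted p = 0.906) that was 0.09 without Tead1KO replicate 3. Its second probe set, 1417817_a_at, read 5.92, 5.54 and 6.17 in Tead1KO, against 5.84, 5.83 and 5.78 in Flox. There the order of the Tead1KO arrays was reversed, with replicate 3 highest and replicate 2 lowest. The difference of 0.06 (95% interval -0.38 to 0.50) was -0.09 without Tead1KO replicate 3. The third lay within background, at 4.08 ± 0.27 in Tead1KO and 4.08 ± 0.15 in Flox (SD, n = 3 each), with a difference of 0.14 without Tead1KO replicate 3. Both brighter probe sets thus ordered the Tead1KO arrays in opposite ways, while the order of the Flox arrays was the same in both.

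Vgll4, the cofactor that competes with Yap1, read 5.42, 5.62 and 5.07 on the Tead1KO arrays and 5.33, 5.93 and 5.86 on the Flox arrays. The groups overlapped through Flox replicate 1, which was lower than the other Flox arrays. Its difference of -0.34 (95% interval -0.85 to 0.17, limma adjusted p = 0.871) was -0.53 without Flox replicate 1, -0.19 without Tead1KO replicate 3 and -0.08 with the control signal as a covariate.

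Vgll3, a cofactor described in mesenchymal cells and muscle, was not above background. Its 3 probe sets averaged 3.43, 3.31 and 3.30 in Tead1KO and 3.37, 3.27 and 3.16 in Flox, all below 4.70. The 1430596_s_at probe set read 3.26, 3.38 and 3.27 in Tead1KO, against 3.24, 3.17 and 3.06 in Flox. These groups did not overlap, but the values lie where unspiked controls lie, so no fold is given. Without Tead1KO replicate 3 the differences of the 3 probe sets lay between 0.03 and 0.16.

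Among the Tead1KO arrays, replicate 3 was most often the one furthest from the Flox mean. Of the 10 member probe sets above background on all arrays, 7 had Tead1KO replicate 3 as the Tead1KO array furthest from the Flox mean, 2 had replicate 2 and 1 had replicate 1. Over all 24647 probe sets of that kind, replicate 3 was the furthest in 61.7%, so the members were near the share of the whole array. At the brighter probe sets its distance was -1.26 for Tead1, -0.63 for Wwtr1 and 0.82 for Tead4, with 0.50 for Tead3 and -0.64 for Vgll4. On Tead1KO replicate 2 the brighter Tead1 probe set was 0.28 above the Flox mean and the brighter Yap1 probe set 1.06 above it. On replicate 3 that of Tead1 was at -1.26 on the log2 scale and that of Yap1 at 0.37. The dimmer probe sets gave -0.12 for Tead1 and 0.13 for Yap1 on replicate 2, and -0.55 and 0.20 on replicate 3. Both Yap1 probe sets thus ordered these arrays in opposite ways. With 3 arrays no relation between Tead1 and Yap1 was tested.

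**Figure D5:**
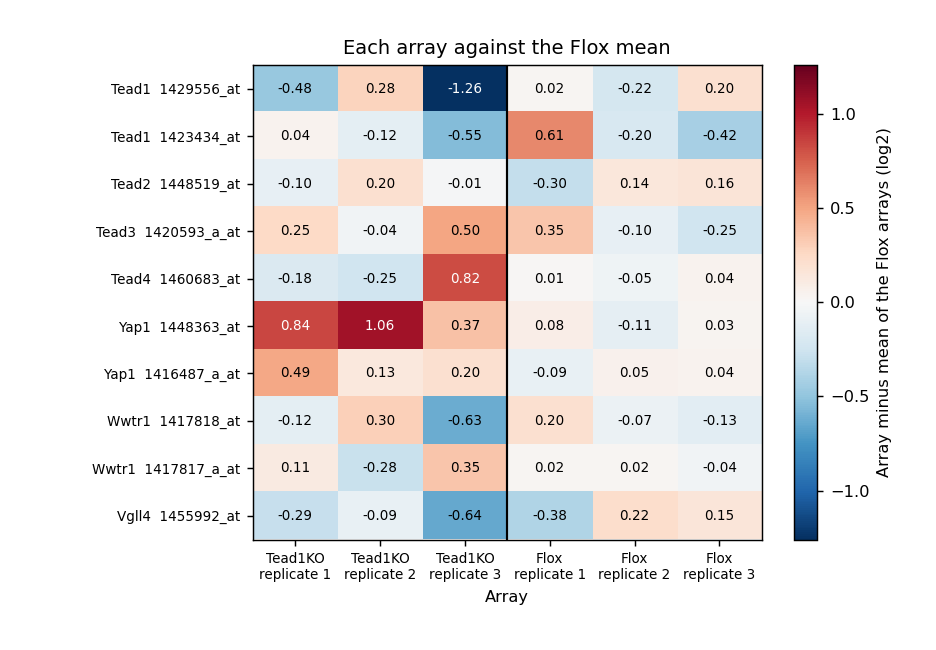
Each cell gives the signal of 1 array (columns, Tead1KO left of Flox) minus the mean of the Flox arrays in log2 units, for the 10 member probe sets above the unspiked controls on all 6 arrays (rows), red for higher and blue for lower. The Yap1 rows are above 0 on all 3 Tead1KO arrays, and Tead1KO replicate 3 holds the largest departures for the brighter Tead1 probe set, Tead4, Wwtr1 and Vgll4.

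The genes whose array profiles lay nearest to Tead1 and Yap1 were sought for the brighter probe set of each only. Nearness was the root mean square difference of values centred on each probe set's own mean over the 6 arrays. The search covered 23745 probe sets above background. For Cnot6l, Xpo1 and Mmp2 the probe set found was not the brightest of the gene, and the brightest is not shown here. Nearest to Tead1 were Ap5m1, a subunit of an adaptor complex (0.0771), Cnot6l, a deadenylase (0.081), and Xpo1, the nuclear export receptor (0.0922). Each had the same order of Tead1KO arrays, for example Xpo1 with 7.77, 8.45 and 6.96 on the Tead1KO arrays and 8.05, 8.07 and 8.27 on the Flox arrays. In Tead1 and these 3 genes, Tead1KO replicate 3 was the lowest array. That array also had the highest hybridization controls, and the part of this in the profiles was not tested. Nearest to Yap1 were Loxl1, a lysyl oxidase that crosslinks matrix (0.0307), Plekha1, a phosphoinositide-binding adaptor (0.0363), and Mmp2, a matrix metalloproteinase (0.0706). Loxl1 read 6.88, 7.03 and 6.40 on the Tead1KO arrays and 6.08, 5.94 and 5.99 on the Flox arrays. None of these 3 passed over all probe sets, with limma adjusted p of 0.440, 0.396 and 0.532. A ranking over 6 arrays and so many candidates is a description only.

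Genes around the TEAD factors in the Hippo pathway were described at the brightest probe set of each. Of 23 measured Hippo kinases and scaffolds, 0 passed over all probe sets by limma, beside 0.308% of all genes so treated, and 5 had an unadjusted p under 0.05, beside 7.23% of all genes. The groups did not overlap for 7 of the 23, beside 13.1% of all genes, 4 higher and 3 lower in Tead1KO. The median difference was -0.01, beside -0.01 over 18193 genes. Wwc2, a scaffold of the KIBRA family that activates the Lats kinases, read 6.84, 6.39 and 6.59 on the Tead1KO arrays and 5.70, 5.35 and 5.24 on the Flox arrays. Every Tead1KO array was above every Flox array, with a difference of 1.17 (SE 0.19, limma adjusted p = 0.0938). Over the alternatives the difference lay between 1.04 and 1.31 and its adjusted p between 0.0465, with the control signal as a covariate, and 0.65, without Flox replicate 3. It was also under 0.05 without Tead1KO replicate 2 (0.0469) and in no other alternative. Of the other 4 Wwc2 probe sets, 1417197_at, with both group means above background, differed by -0.32. The remaining 3 had both group means within background, 1417195_at and 1417196_s_at with Tead1KO arrays above all Flox arrays and 1417198_at with overlapping groups. Wtip, an Ajuba family protein that restrains the Lats kinases, differed by 0.85 (limma adjusted p = 0.322). Amotl2, which binds Yap1 and holds it out of the nucleus, differed by 0.68 (limma adjusted p = 0.320). The kinase Taok3 differed by -0.53 at its brightest probe set and by -0.03 and -0.40 at the other probe sets above background.

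Further cofactors of TEAD factors gave 0 of 9 past the test by limma and 0 with an unadjusted p under 0.05. The shares of all genes were 0.308% and 7.23%. Beside a median difference of -0.01 over all genes, that of the 9 cofactors was -0.12. Among them Vgll1, a Vgll family member, had a difference of 0.34, Ctbp2, a corepressor, 0.46, Ncoa1, a nuclear receptor coactivator, -0.30 and Chd4, a chromatin remodeller, -0.23. The second Ctbp2 probe set differed by -0.09. Further probe sets above background differed by -0.41 for Ncoa1 and by 0.08 and -0.30 for Chd4. Of 22 target genes of Yap1 and TEAD factors, 0 passed by limma, beside 0.308% of all genes. In total 14 lay above 0 and 8 below, with a median of 0.07, beside -0.01 over all genes. Beside 7.23% of all genes, 2 of the 22 had an unadjusted p under 0.05. Those 2 were Gadd45a and Amotl2. Gadd45a, a stress response gene, averaged 7.85 in Tead1KO and 7.01 in Flox. Its groups did not overlap, and its difference of 0.84 did not pass (limma adjusted p = 0.294). Amotl2, listed among the targets as well, read 8.44, 8.14 and 8.34 in Tead1KO, against 7.63, 7.64 and 7.62 in Flox. Of these targets, 5 had both group means within background.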

How the data were processed

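RNA of islets was biotin-labelled and hybridized to an Affymetrix whole-genome mouse array, 1 array per sample, 3 Tead1KO and 3 Flox. Per the submitters' processing notes, the authors processed the arrays with Affymetrix Expression Console, and they deposited probe set signals on a log2 scale. No source used here gives the program's version or the method of normalization. That values are log2 was taken from their range, which lay between 2.75 and 15.71. Of 45101 probe sets, 64 controls were left out. Of the rest, 34945 carried 1 gene symbol in the platform annotation, 932 several and 9160 none.

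Differences, Tead1KO minus Flox, were tested by limma (version 3.58.1, under R version 4.3.3) (lmFit, eBayes with trend=TRUE, no covariate, no filter on dim signals), with Benjamini-Hochberg adjustment over 45037 probe sets and a threshold of 0.05. SE and 95% intervals are moderated. Exact permutation tests were two-sided. For arrays, their number limits the precision. The procedure was tested on simulated data with shifts larger than any member difference, which does not show what smaller differences it would detect. Named were all member probe sets, up to 4 genes of each pathway list by smallest p (of the target list the 2 with an unadjusted p under 0.05, since a further gene is not reported here), markers within background, and the 3 nearest profiles to Tead1 and to Yap1. Markers with an unadjusted p under 0.05 were named outside this rule, after their values were seen. Pathway and marker genes were taken at their brightest probe set. Members, lists and tests were chosen with earlier results of these data known, and the promoter motif was chosen after the values were seen. Fixed list members without a single-symbol probe set were not analysed here. The alternatives were 1 probe set per gene, the omission of dim probe sets or of those that can match several transcripts, quantile normalization, median centring, other variance priors, the hybridization controls as a covariate, the replicate number as a block, and each array left out in turn.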

Additional observations from a re-analysis of the deposited data

How the results depend on the processing

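No member probe set passed under any of the 15 alternatives, and 186 of 207 recomputed differences kept their direction. Those that turned were small. With the hybridization controls as a covariate, Tead3 was at -0.02, Tead4 at -0.17, and the Wwtr1 probe sets at 0.06, -0.13 and 0.12, with a Vgll3 probe set at 0.00. Quantile normalization gave -0.05 for Tead2 and -0.02 for a Vgll3 probe set, and median centring gave -0.03 for Tead2, -0.02 for that Vgll3 probe set and 0.00 for a Wwtr1 probe set. With single arrays left out, the dimmer Tead1 probe set ranged from -0.42 to 0.10, Tead2 from -0.12 to 0.11, Tead4 from -0.21 to 0.32, the Wwtr1 probe sets from -0.37 to 0.09, -0.09 to 0.23 and -0.13 to 0.14, and 2 Vgll3 probe sets from -0.02 to 0.20 and -0.01 to 0.08. The causes were not tested. The number of probe sets called on the whole array, 81, was 143 with quantile normalization, 42 with median centring and 280 with the control signal as a covariate. It ranged from 4 without Tead1KO replicate 1 to 239 without Tead1KO replicate 2. In the Hippo list the count of 0 became 1 (Wwc2) with the control signal as a covariate and 0 to 1 with single arrays left out. Correlations of deviations between arrays of equal replicate number were 0.0635, 0.351 and -0.195 for numbers 1 to 3. Tead1KO replicates 1 and 2 correlated best with the Flox array of their own number, and replicate 3 with Flox replicate 1 (0.354). Whether equal numbers pair the arrays is not settled by these values. With the replicate number as a block, 96 probe sets and 0 members were called, with Tead1 at -0.49 and Yap1 at 0.75. Signals within the range of unspiked controls, as in Vgll3, could hardly show a fall.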
